A study of Mus musculus with 33 samples.

Results

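The change from mESCs to day 8 EBs was analysed in Neil1 and Neil2 mutant lines, to describe which differentiation steps mutant EBs made and which they missed. The mutant clones were taken from the labels, namely 12 of the 33 libraries of the series, and 6 control libraries of the same stages served as the comparison. The parental line of all clones was E14TG2a, which was derived from mouse blastocysts, and each clone is a colony picked after transfection and puromycin selection, so that the mESC and EB libraries of a clone come from the same line. Neil1 mutants (clones #7, #9 and #11) and Neil2 mutants (clones #1, #11 and #14) received Cas9 with a pair of guides, and control clones (#1, #4 and #7) received the same Cas9 vector without a guide. mESCs were kept on gelatin with serum and leukaemia inhibitory factor (LIF), which holds them in self-renewal. For EBs, the cells were moved to non-adherent dishes without LIF, where they aggregate and differentiate, and were harvested on day 8 without retinoic acid. EBs + RA and the Apex1 mutant are not analysed here.

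NEIL1 and NEIL2 are DNA glycosylases, enzymes of base excision repair that remove oxidised bases and take part in the processing of TET products at cytosines. An EB repeats, without a body plan, steps of the early embryo. Naive pluripotency genes are shut off and formative epiblast genes come on, an outer layer of primitive endoderm lays down basement membrane, and epiblast cells that pass through a primitive streak state give rise to mesoderm, which brings on Hox genes, mesenchymal matrix and vessel precursors. In bulk RNA, fewer cells of a type and less RNA per cell cannot be told apart.

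The guide pairs show where the mutant genes were cut and why counts on these genes say little about the deletion. Each guide is written 5′ to 3′ with its NGG motif in capitals, and positions are for NCBIM37.
Neil1 guide 1, chr9:56995167-56995186, intron: gggaggaacaggtttgtaagTGG
Neil1 guide 2, chr9:56994583-56994602, coding exon: gatgtcaggatccttccagcTGG
Neil2 guide 1, chr14:63810934-63810953, intron: gctgtgtggttaaggctgagGGG
Neil2 guide 2, chr14:63810347-63810366, intron: gctgtgaagaatgtctgaaaAGG
Both genes lie on the minus strand, the guides of a pair lie 584 bp apart at Neil1 and 587 bp apart at Neil2, and the first coding base lies between them. Most exons of either gene remain outside the targeted span, so reads from the rest of the transcript still count. Levels are in CPM, the count scaled to the library's counts on the autosomal genes tested, with a normalization factor (TMM) for each library. Neil1 had 30.9, 2.48 and 7.13 CPM in Neil1 mESC clones #7, #9 and #11, and 6.14, 1.40 and 3.12 CPM in their EBs. The same gene had 7.63 to 9.75 CPM in control mESCs and 5.81 to 9.14 CPM in control EBs. Neil2 had 5.43, 9.33 and 6.30 CPM in Neil2 mESC clones #1, #11 and #14, and 18.2, 6.67 and 9.33 CPM in their EBs, against 5.74 to 15.0 CPM in control mESCs and 6.46 to 10.7 CPM in control EBs. The mutant and control ranges overlapped for both genes in both stages, so these counts do not check the labels.

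Neil libraries held 21758303 to 32503071 counts on genes (median 26573334) and control libraries 26628520 to 48350904. On the CPM scale used here 3 counts correspond to 0.097 to 0.152 CPM in a Neil library, and genes under about that level rest on counting noise. The mESC library of Neil1 #11 had counts on 287 genes of chromosome X, against 821 to 902 in the other 17 libraries, and therefore only autosomal genes were tested. Stage changes were fitted with edgeR's quasi-likelihood test with the clone as a block, and a gene was called raised or lowered when its adjusted p (Benjamini-Hochberg) was under 0.1 and its log2 fold change passed 0.5 in either direction. The difference between the Neil and the control stage change was tested in the same fit.

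From mESCs to EBs, 2668 of 15920 autosomal genes were raised in the Neil mutants (16.8%) and 2607 were lowered (16.4%). In control clones 2954 were raised (18.6%) and 3043 lowered (19.1%). Of the 2954 genes raised in controls, 1574 (53.3%) were also raised in the Neil mutants, 1281 were not called and 99 were lowered. Of the 3043 genes lowered in controls, 1750 (57.5%) were also lowered, 1243 were not called and 50 were raised. A gene that is called in one genotype and not in the other is not thereby different, and the test of the difference called 858 genes with a higher (5.39%) and 1021 with a lower (6.41%) stage change in Neil mutants than in controls. Among the 1281 genes raised in controls and not called in Neil mutants, 477 had a lower stage change by that test. Without control #4 the difference was called for 258 genes higher and 534 lower, and the count of higher genes was 390 without control #1 and 446 without Neil2 #14.

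**Figure D1:**
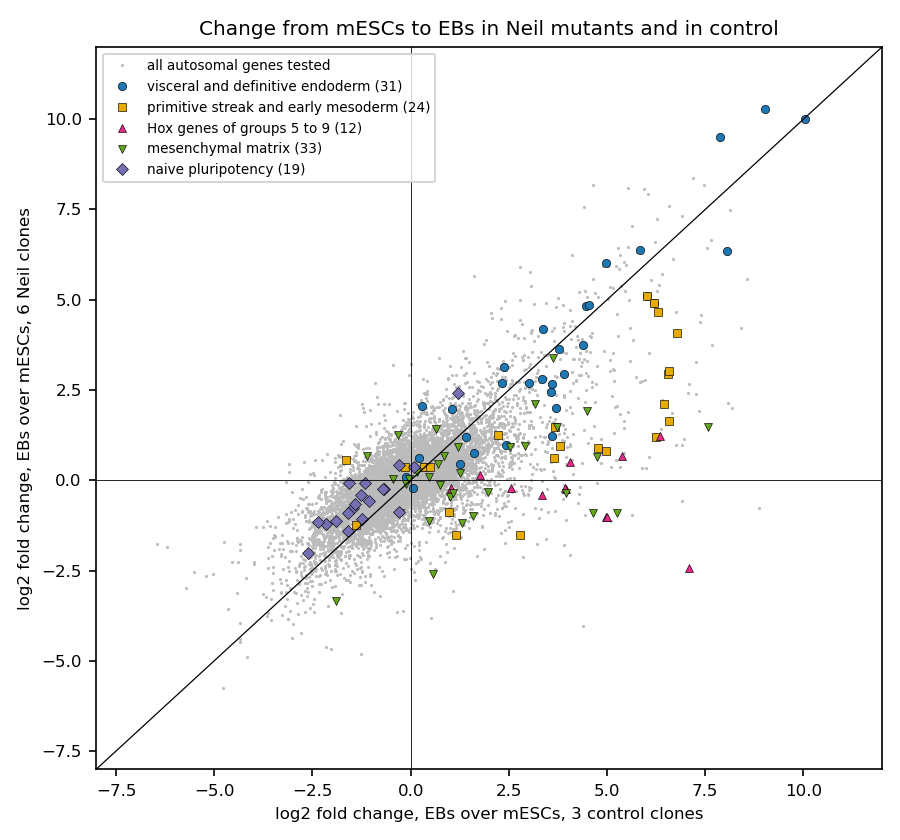
Each grey point is 1 of 15920 autosomal genes, with the log2 fold change from mESCs to EBs in 3 control clones on the x axis and in 6 Neil clones on the y axis, and coloured points are members of the lists named in the key with the number tested. The diagonal marks an equal change: members of the endoderm list lie along it, while members of the Hox list lie to the right of it near 0 on the y axis.

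The 23 gene lists used here differed widely in how many of the genes that controls raised were also raised by the mutants. Visceral and definitive endoderm genes were raised in both (26 of 27), as were parietal endoderm and basement membrane genes (12 of 13), trophoblast genes (15 of 16) and formative epiblast genes (6 of 7). For primitive streak genes the share was 13 of 18, for the epithelium and epithelial-mesenchymal transition list 11 of 19 and for crest genes 8 of 15. Endothelial genes had 6 of 12, mesenchymal matrix genes 10 of 22, cardiac and striated muscle genes 4 of 9 and proneural and neuronal genes 1 of 5. The share was 2 of 13 for paraxial and lateral mesoderm, 2 of 7 for Hox genes of groups 1 to 4 and 0 of 12 for Hox genes of groups 5 to 9. Over all genes the share was 53.3%. The first 4 lists and the streak list (72.2%) lay above it. The proneural and neuronal list (20%) and the last 3 lists lay well below it. In these last 3 lists, 6, 2 and 5 of the members tested passed the filter on low counts only with the control libraries included.

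**Figure D2:**
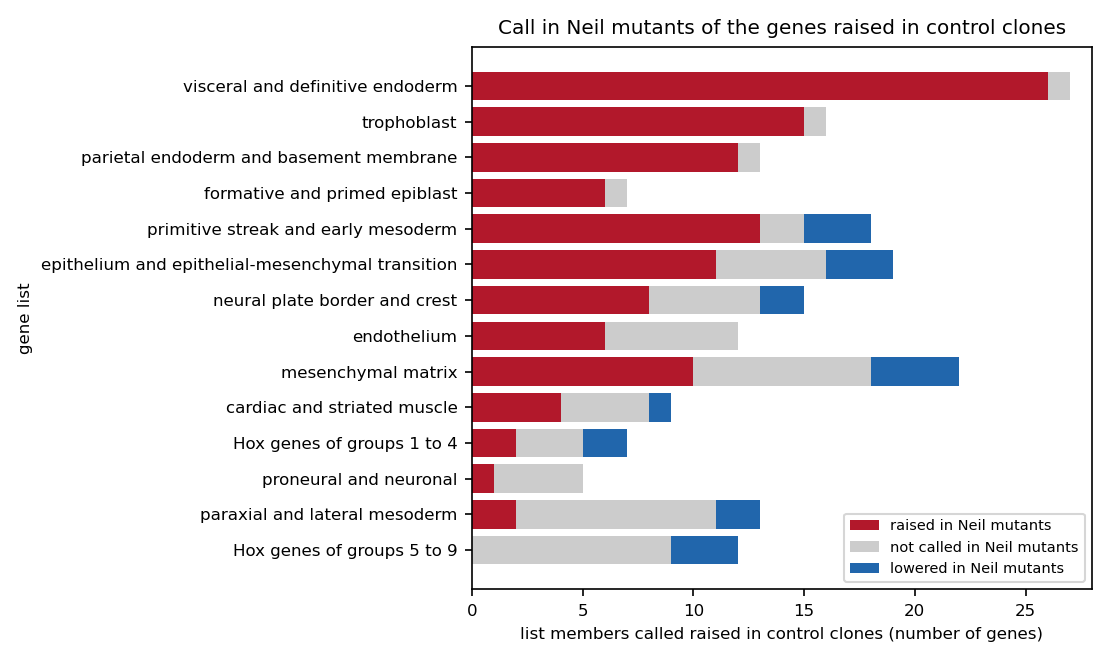
Each bar is a gene list, and its length is the number of members called raised from mESCs to EBs in control clones, divided by whether the same genes were raised, not called or lowered in the Neil mutants. Lists with at least 5 such members are shown, and the bars run from 0 of 12 also raised for Hox genes of groups 5 to 9 to 26 of 27 for endoderm.

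Exit from naive pluripotency was made in part. Naive genes hold stem cells in the state of the preimplantation epiblast, and 11 of 19 were lowered in Neil EBs and 1 was raised (the backgrounds are 16.4% and 16.8%). Controls lowered 14 of the 19. The median change of the list was −0.65 on the log2 scale in Neil clones and −1.26 in controls, beside 0.017 and −0.0043 over all genes tested. For 11 members the stage change was higher in Neil mutants than in controls (background 5.39%), and for Tbx3, a T-box factor, it was lower, a call lost without control #1, control #4, Neil1 #7, Neil1 #11 or Neil2 #14. All 6 Neil clone changes lay above all 3 control clone changes for 9 of the 19, beside 6.38% of all genes. The count of 11 was 5 without control #1, 5 without control #4, 7 without Neil1 #9 and 7 without Neil2 #14.

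Klf4, a naive factor maintained by LIF signalling, fell from 202, 264 and 403 CPM (lowest, median and highest of the 6 Neil mESC clones) to 57.5, 65.5 and 72.9 CPM in their EBs. Control EBs held 40.6, 47.3 and 38.7 CPM. Every Neil EB library lay below every Neil mESC library and above every control EB library. The log2 fold change was −2.02 ± 0.12 (SE, adjusted p = 3e-07) in Neil mutants and −2.62 ± 0.18 in controls, and the difference of 0.60 ± 0.22 missed the threshold (adjusted p = 0.12). Esrrb, an orphan nuclear receptor of the naive network, had 477, 535 and 613 CPM in Neil mESCs and 241, 289 and 310 CPM in Neil EBs, against 184, 181 and 177 CPM in control EBs. All 6 Neil EB libraries lay below the Neil mESCs and above the control EBs. It fell by 0.91 on the log2 scale in Neil mutants (SE 0.10, adjusted p = 2.2e-05), 0.67 ± 0.17 less than in controls (adjusted p = 0.034), a call that was lost without control #1 (adjusted p = 0.12) and without control #4 (0.11).

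Fgf4, the growth factor by which epiblast cells signal to each other, was not called in Neil mutants, at 172, 246 and 317 CPM in mESCs and 209, 226 and 255 CPM in EBs. Control clones went from 261, 239 and 261 CPM to 90.4, 79.7 and 84.2 CPM. The Neil ranges of both stages overlapped, whereas the control ranges were far apart. The difference in stage change was 1.51 ± 0.19 (adjusted p = 0.00049). Dppa3 (also called Stella), a maternal factor that protects DNA methylation, went the other way in both genotypes, from 13.5, 16.6 and 25.3 CPM in Neil mESCs to 63.5, 95.8 and 117 CPM in Neil EBs. It rose by 2.40 ± 0.15 in Neil mutants and 1.21 ± 0.21 in controls, and the rise was larger in Neil mutants (difference 1.2 ± 0.25, adjusted p = 0.013).

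Of 12 core and general pluripotency genes tested, Tdgf1, a Nodal co-receptor, was lowered in Neil mutants and 3 were raised, whereas controls lowered 7 and raised 3. The median change was 0.26 in Neil mutants and −0.66 in controls, and 5 stage changes were higher than in controls (background 5.39%), a count that ran from 2 without control #4 to 9 without Neil2 #1. Pou5f1 (Oct4), which is required for pluripotency of any kind, had 791, 988 and 1112 CPM in Neil mESCs and 404, 756 and 832 CPM in their EBs, where the lowest value, Neil2 #1, stood next to the control EBs (415, 396 and 398 CPM). The Neil stage change of −0.47 ± 0.13 did not reach the fold change limit, and the call of its difference from control (0.65 ± 0.22, adjusted p = 0.093) was lost when any clone other than Neil2 #1 was left out (adjusted p 0.11 to 0.30), and with RLE size factors (0.11) or all chromosomes (0.12). Sox2, its partner factor, had 392, 452 and 467 CPM in Neil mESCs and 419, 516 and 580 CPM in EBs. All 6 Neil EB libraries lay above the control EBs at 294, 308 and 293 CPM. The difference in stage change of 0.89 ± 0.17 was called (adjusted p = 0.0065), also with each clone left out in turn. Lefty1, a Nodal target and antagonist, rose from 20.9, 29.8 and 39.7 CPM to 79.0, 261 and 354 CPM in Neil clones, where 5 of the 6 EB libraries held at least 231 CPM. Controls went from 18.9, 32.0 and 38.9 CPM to 88.5, 90.9 and 49.1 CPM. The difference was 1.55 ± 0.39 (adjusted p = 0.036), and it was not called without control #4 (adjusted p = 0.12) or with no filter on low counts (0.24).

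The step to a formative or primed epiblast state was made. Of 14 genes tested from this list, 10 were raised in Neil EBs and 1 lowered (71.4% and 7.14%, beside 16.8% and 16.4% of all genes), against 7 and 2 in controls. Fgf5, the classical marker of the postimplantation epiblast, rose from 0.166, 0.235 and 0.547 CPM in Neil mESCs to 21.6, 44.4 and 56.8 CPM in Neil EBs. Control EBs held 21.5, 19.6 and 29.1 CPM. The mESC and EB ranges were far apart in both genotypes, and 2 of the 6 Neil EB libraries (Neil1 #11 with 23 CPM and Neil2 #1 with 21.6 CPM) lay within the control range. The log2 fold change was 7.05 ± 0.29 (adjusted p = 3.5e-09) in Neil mutants. Otx2, a homeodomain factor that drives this transition, rose from 27.6, 35.3 and 47.1 CPM to 105, 118 and 127 CPM, with all 6 libraries above the control EBs at 56.4, 48.4 and 56.3 CPM and a log2 fold change of 1.74 ± 0.12 (adjusted p = 8.6e-07). The differences from control were 1.42 ± 0.45 for Fgf5 (adjusted p = 0.081) and 0.75 ± 0.21 for Otx2 (adjusted p = 0.055). Leaving out 1 clone ended the call for Fgf5 in 7 of 9 cases, with an adjusted p of 0.39 without control #4, and for Otx2 in 3 of 9, namely without control #4, Neil1 #9 or Neil2 #14 (log2 difference 0.47, 0.63 and 0.77). Dnmt3b, a de novo DNA methyltransferase of this stage, rose by 1.03 ± 0.15 in Neil mutants, with no called difference from control (0.45 ± 0.26, adjusted p = 0.36).

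Other members of this list rose less than in controls. Cdh2 (N-cadherin) rose from 3.48, 5.88 and 7.70 CPM to 9.16, 12.9 and 16.9 CPM in Neil clones, and from 6.67, 6.54 and 6.29 CPM to 126, 106 and 80.2 CPM in controls. The highest Neil EB library lay far below the lowest control EB library. The rise of 1.19 ± 0.18 in Neil mutants differed from that of controls by −2.79 ± 0.31 (adjusted p = 0.00026), and Nes, an intermediate filament gene of epiblast and neural progenitors, also differed (−1.56 ± 0.21, adjusted p = 0.00082).

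**Figure D3:**
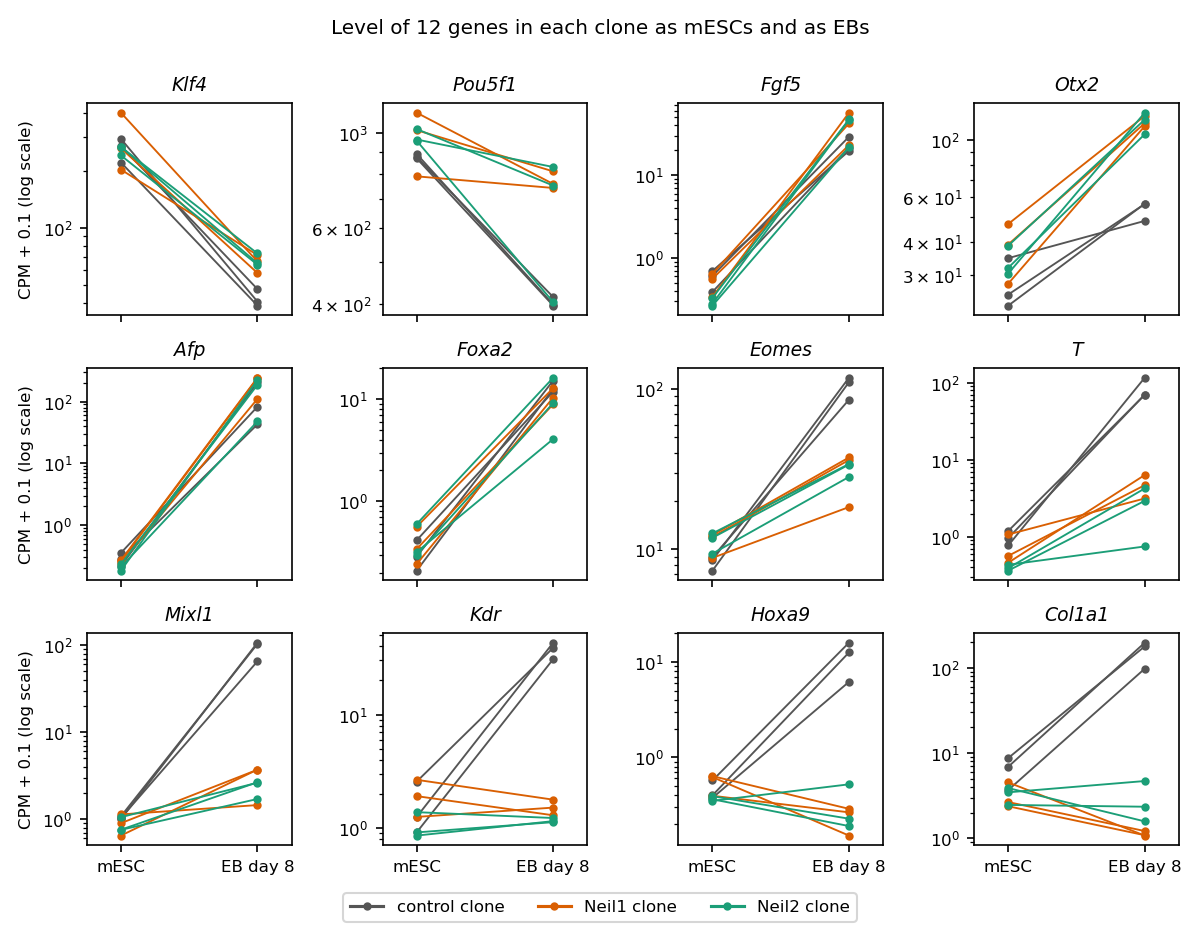
The level of 12 genes in each clone is plotted in CPM plus 0.1 on a log axis, with 1 line per clone from its mESC to its EB library, and for Klf4, Fgf5, Otx2, Afp and Foxa2 the lines of Neil and control clones run the same way, while T, Mixl1 and Eomes rise less in Neil clones. In EBs, Kdr, Hoxa9 and Col1a1 lie at 30.6, 6.10 and 97.2 CPM or more in control clones and at 1.69, 0.42 and 4.59 CPM or less in Neil clones.

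Endoderm was the most complete step. Visceral endoderm is the secretory and absorptive layer that surrounds the epiblast, and its genes are shared in part with definitive endoderm, which comes from the streak. In Neil mutants 28 of 31 genes tested were raised, and the other 3, Hnf4a, Hhex and Dpp4, were not called (log2 fold changes 0.45, −0.21 and 0.08), and controls raised 27. The number lowered was 0 in edgeR, in DESeq2 and at an unadjusted p below 0.05 in either. Over all genes 16.8% were raised. The median log2 change was 2.81 in Neil mutants and 3.59 in controls. The difference test called 1 member higher (Lrp2) and 3 lower (Cxcr4, Spink3 and Apom), beside 5.39% and 6.41% of all genes. These counts were 3 and 5 without control #7, the first was 3 without Neil2 #11, and the second was 5 without Neil2 #1 and 1 without control #1, Neil1 #7, Neil1 #9 or Neil2 #14. The call for Spink3 was lost in 5 of 9 fits with a clone left out. DESeq2 also called Gata4 (−0.99, adjusted p = 0.066) and Gata6 (−0.95, adjusted p = 0.061) lower than in controls. In edgeR these 2 were not called (adjusted p = 0.15 and 0.13). The summed level of the members rose from 149 to 228 CPM in Neil mESCs to 473 to 1819 CPM in Neil EBs, a range that enclosed the control EBs (773 to 1400 CPM).

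Afp (α-fetoprotein, chr5:90919740-90937933 in NCBIM37), a secreted carrier of visceral endoderm and fetal liver, had at most 0.168 CPM in Neil mESCs. Its level in Neil EBs was 237, 243 and 110 CPM for Neil1 #7, #9 and #11, and 224, 47.6 and 187 CPM for Neil2 #1, #11 and #14. Control EBs held 82.3, 42.6 and 204 CPM, and the ranges of both genotypes overlapped. The log2 fold change was 10.27 ± 0.41 (adjusted p = 4e-10) in Neil mutants and 9.02 ± 0.49 in controls, a difference of 1.25 ± 0.64 that was not called (adjusted p = 0.29) with all clones and was called without control #7 (2.17, adjusted p = 0.031). The 250 bases upstream of its start site hold a match, in capitals, to the letters GTTAAT, any base, ATT of HNF1, a homeodomain factor of endoderm and liver (RefSeq, GRCm38.p6, plus strand, chr5:90490464-90490713, first base of the match at −105).
Afp promoter: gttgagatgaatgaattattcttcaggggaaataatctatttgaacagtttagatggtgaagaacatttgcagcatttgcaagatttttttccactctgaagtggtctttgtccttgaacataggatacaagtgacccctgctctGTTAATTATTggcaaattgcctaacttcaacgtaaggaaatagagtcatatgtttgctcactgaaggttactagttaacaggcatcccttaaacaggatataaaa
Of 27025 genes with a promoter of this length 0.44% held these letters on either strand, and 1 of the 24 endoderm genes found in the table did.

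Ttr (transthyretin), a thyroid hormone carrier, went from at most 0.12 CPM in Neil mESCs to 22.5, 77.1 and 108 CPM in Neil EBs, and its rise did not differ from control beyond the error (−0.03 ± 1.02). Foxa2, a forkhead factor that sets up endoderm, rose from 0.142, 0.229 and 0.498 CPM to 3.97, 9.67 and 16.1 CPM in Neil clones, with 12.6, 15.1 and 11.8 CPM in control EBs. Its log2 fold change was 5.10 ± 0.27 in Neil mutants and 6.01 ± 0.42 in controls (difference −0.90 ± 0.50, adjusted p = 0.31). Sox17 and Gata4, transcription factors of primitive endoderm, rose by 3.74 ± 0.20 and 2.94 ± 0.21. In all 3 genes the lowest Neil EB library was Neil2 #11 and the highest Neil2 #1.

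Cxcr4, a chemokine receptor of definitive endoderm and mesoderm, differed from most of its list. It went from 1.39, 1.59 and 2.24 CPM in Neil mESCs to 3.33, 4.01 and 4.80 CPM in Neil EBs, against 35.1, 34.3 and 22.6 CPM in control EBs. The Neil and control EB libraries did not overlap. The rise of 1.23 ± 0.17 was smaller than in controls by 2.38 ± 0.27 (adjusted p = 0.00033). Lrp2 (megalin), the endocytic receptor of visceral endoderm, rose from 32.9, 48.7 and 75.1 CPM to 130, 210 and 306 CPM, by 1.98 ± 0.11, which was more than in controls (difference 0.94 ± 0.18, adjusted p = 0.008, not called without the clone block).

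Genes of parietal endoderm and of basement membrane, the sheet that primitive endoderm lays down, were raised in 13 of 18 cases in Neil mutants (72.2%, against 16.8% of all genes) and in 13 in controls. Col4a1, a chain of type IV collagen, rose from 154, 205 and 322 CPM to 256, 571 and 1035 CPM (log2 fold change 1.38 ± 0.16). Lamb1, a laminin chain, rose from 104, 128 and 160 CPM to 216, 356 and 519 CPM (1.44 ± 0.12). For both genes Neil2 #1 was the highest and Neil2 #11 the lowest EB library. Pth1r, the parathyroid hormone receptor typical of parietal endoderm, rose by 4.41 ± 0.19 in Neil mutants and 4.11 ± 0.27 in controls. Krt19, an epithelial keratin, was not called in Neil mutants (0.73 ± 0.34) and rose by 3.05 ± 0.48 in controls, with a difference of −2.32 ± 0.59 (adjusted p = 0.04) that was not called without control #4 (adjusted p = 0.101), with all chromosomes (0.17) or with no filter on low counts (0.26).

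Markers of trophoblast, the outer lineage of the placenta, were raised for 16 of 21 genes tested in Neil mutants (76.2%, against 16.8% of all genes) and 16 in controls. Many of these are expressed at low levels. Gcm1, a factor of labyrinth trophoblast, went from 0.29, 0.396 and 0.884 CPM to 1.28, 3.03 and 3.76 CPM in Neil clones, and Elf5, a trophoblast stem cell factor, from 0.0713, 0.226 and 0.379 CPM to 1.2, 1.5 and 2.02 CPM. Their log2 fold changes of 2.57 ± 0.25 and 2.90 ± 0.38 did not differ beyond the threshold from those of controls (adjusted p = 0.18 and 0.58). The placental hormone genes Prl3d1 and Prl7d1 were at 0 to 0.0363 CPM in Neil mESCs and reached 15.7 and 14.0 CPM in the EBs of Neil1 #11, while control EBs held at most 2.63 and 5.23 CPM. The summed level of the list was nevertheless lower in Neil than in control EBs, at 1226 to 1737 CPM against 3268 to 5581 CPM. The difference test called 7 members lower (33.3%, against 6.41% of all genes) and 1 higher (background 5.39%). The latter count was 3 without Neil2 #1 and 2 without control #7 or Neil1 #7. Of the lower members, Cdx2, Eomes and Hand1 are shared with streak and mesoderm lists. The member that was higher, Tcfap2c, went from 48.0, 56.7 and 65.1 CPM to 92.8, 120 and 136 CPM in Neil clones (difference 0.88 ± 0.17, adjusted p = 0.008).

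The primitive streak step was taken by many of its genes at a fraction of the control level. Cells in the streak lose epithelial character under Wnt and Nodal signals and become mesoderm or definitive endoderm. Of 24 genes tested, 14 were raised and 4 lowered in Neil EBs (58.3% and 16.7%, beside 16.8% and 16.4% of all genes), against 18 and 2 in controls. The median log2 change was 0.91 in Neil mutants and 3.74 in controls. For 14 members the stage change was lower than in controls (background 6.41%) and for 1, the Notch ligand gene Dll1, it was higher (2 without Neil2 #1). Of the 24, 3 passed the filter on low counts only with the control libraries included, and of the other 21 the change was lower for 13. The summed level was 132 to 139 CPM in Neil mESCs, 175 to 256 CPM in Neil EBs and 649 to 720 CPM in control EBs.

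T (Brachyury, chr17:8627288-8635361 in NCBIM37), the T-box factor of the streak and notochord, had at most 0.968 CPM in Neil mESCs. Its level in Neil EBs was 6.24, 3.04 and 4.58 CPM for Neil1 #7, #9 and #11, and 0.647, 4.14 and 2.83 CPM for Neil2 #1, #11 and #14. Control EBs held 69.7, 70.5 and 117 CPM. The library of Neil2 #1 lay within the range of the Neil mESCs, the other 5 above it, and all 6 lay below the control EBs. The log2 fold change was 2.95 ± 0.38 (adjusted p = 4.8e-05) in Neil mutants and 6.56 ± 0.43 in controls, a difference of −3.61 (SE 0.57, adjusted p = 0.0029). The 250 bases upstream of T hold a match, in capitals, to the TCF/LEF letters CTTTGAT or CTTTGAA on either strand, bound by the nuclear partners of Wnt signalling (RefSeq, GRCm38.p6, plus strand, chr17:8434173-8434422, first base of the match at −235).
T promoter: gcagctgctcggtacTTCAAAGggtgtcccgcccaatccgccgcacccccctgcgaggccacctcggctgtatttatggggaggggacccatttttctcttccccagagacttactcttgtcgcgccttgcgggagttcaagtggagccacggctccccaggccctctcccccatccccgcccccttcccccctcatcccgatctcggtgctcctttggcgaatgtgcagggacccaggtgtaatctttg
These letters were found for 4 of the 20 streak genes found in the table and for 8.63% of all 27025 genes.

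Mixl1, a homeobox gene of streak and mesendoderm, rose from 0.547, 0.728 and 1.03 CPM in Neil mESCs to 1.35, 2.54 and 3.62 CPM in Neil EBs, against 104, 65.2 and 107 CPM in control EBs. Neil EBs lay just above the mESC range and did not approach the control EBs. The rise of 1.64 ± 0.25 differed from that of controls by −4.93 (SE 0.41, adjusted p = 4.1e-05). Eomes, which acts upstream of Mesp1 and of definitive endoderm, rose from 8.73, 11.8 and 12.5 CPM to 18.2, 33.8 and 37.3 CPM in Neil clones, with 110, 85.8 and 118 CPM in control EBs. Its rise of 1.48 ± 0.11 was the smaller one (difference −2.19 ± 0.19, adjusted p = 5.8e-05). Fgf8, a growth factor of the streak, rose by 4.08 ± 0.40 in Neil mutants and 6.78 ± 0.51 in controls (difference −2.70 ± 0.64, adjusted p = 0.024), so that it was higher in EBs than in mESCs of all 6 Neil clones but at 3.07 to 9.02 CPM against 35.5 to 58.2 CPM in control EBs. Foxa2 and Cer1, a secreted Nodal and Wnt antagonist, which the streak list shares with endoderm, were raised without a called difference from control.

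Some members of the streak list were lowered. Mesp1, the first marker of cardiac mesoderm, had 0.126, 0.304 and 0.459 CPM in Neil mESCs and 0, 0.101 and 0.162 CPM in Neil EBs, against 2.63, 2.60 and 5.76 CPM in control EBs. The difference in stage change of −4.29 (SE 0.85) was called (adjusted p = 0.0072), whereas the fall within Neil mutants rested on few counts and was no longer called without Neil1 #7 (adjusted p = 0.22), Neil2 #11 (0.11) or Neil2 #14 (0.16). Mesp1 passed the filter on low counts only with the control libraries included, where it is high, so the difference is in part set by the filter. Cdx1, a homeobox gene of the posterior embryo, fell from 1.5, 2.82 and 2.92 CPM to 0.675, 0.801 and 1.14 CPM in Neil clones and rose in controls to 5.89, 4.49 and 7.01 CPM (difference −2.66 ± 0.36, adjusted p = 0.0009). Its relative Cdx2 rose in both, to 1.23, 1.66 and 2.07 CPM in Neil EBs and to 82.7, 76.3 and 48.7 CPM in control EBs, with a difference of −4.34 ± 0.53 (adjusted p = 0.00058). Dll1 rose from 4.55, 5.76 and 9.25 CPM to 6.99, 8.14 and 14.5 CPM in Neil clones and fell in controls from 15.5, 16.1 and 10.4 CPM to 4.61, 4.88 and 3.86 CPM (difference 2.20 ± 0.25, adjusted p = 0.00033). Its rise in Neil mutants was not called without Neil2 #1 or without Neil2 #14.

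Paraxial and lateral mesoderm genes were raised in Neil mutants about as often as genes in general. Of 20 genes tested, 3 were raised and 6 lowered in Neil mutants (15% and 30%, against 16.8% and 16.4% of all genes), whereas controls raised 13 and lowered 4 (2 without control #4). For 12 members (60%, against 6.41% of all genes) the stage change was lower than in controls, and for 7 of the 14 that passed the filter with the Neil libraries alone. Hand1, a factor of extraembryonic and lateral mesoderm, rose from 1.74, 2.83 and 3.36 CPM to 5.87, 7.33 and 12.7 CPM in Neil clones, and in controls from at most 2.50 CPM to 90.2, 110 and 89.5 CPM. Neil EBs lay above all Neil mESCs and far below control EBs. The rise of 1.63 ± 0.21 differed from that of controls by −3.79 ± 0.36 (adjusted p = 8.8e-05). Hand2, a relative of Hand1 in heart and limb, was not raised, at 0.0984, 0.172 and 0.285 CPM in Neil mESCs and 0, 0.101 and 0.37 CPM in Neil EBs, against 10.8, 14.1 and 2.90 CPM in control EBs. The difference of −7.50 ± 1.04 was called (adjusted p = 0.00043). Hand2 passed the filter on low counts only with the control libraries included, where it is high. Its lower change is therefore in part set by the filter. Bmp4, a ligand that induces mesoderm, was not called in Neil mutants (−0.33) and rose by 2.57 in controls, with a called difference of −2.90.

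Of 23 cardiac and striated muscle genes tested, 5 were raised and 9 lowered in Neil mutants (21.7% and 39.1%, against 16.8% and 16.4% of all genes), and 9 raised and 7 lowered in controls (18.6% and 19.1% of all genes). The 5 raised were 3 without Neil1 #11 or Neil2 #14, and Gata4 and Gata6 among them are endoderm genes as well. Myl3, a myosin light chain gene, rose from at most 0.0829 CPM to 0.638, 1.34 and 4.46 CPM (lowest, median and highest Neil EB library), while Myl7, the atrial light chain gene, fell from 11.4, 15.9 and 20.9 CPM to 3.01, 3.86 and 4.35 CPM. Both moved the same way in controls with no called difference. Acta2, the smooth muscle actin gene, had 0.246, 0.405 and 0.457 CPM in Neil EBs and 45.9, 54.9 and 21.8 CPM in control EBs, with a difference in stage change of −4.11 ± 0.57 (adjusted p = 0.0014).

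Among 26 endothelial genes, 8 were raised and 4 lowered in Neil mutants (30.8% and 15.4%, beside 16.8% and 16.4% of all genes), and 12 and 6 in controls. The stage change was lower than in controls for 7 (26.9%, against 6.41% of all genes). That count was 4 without control #1 and 3 without control #4. Among the 24 genes that passed the filter on low counts with the Neil libraries alone, the change was lower for 6. Kdr (Flk1), the VEGF receptor gene that marks haemangioblasts, had 0.763, 1.22 and 2.57 CPM in Neil mESCs and 1.03, 1.17 and 1.69 CPM in Neil EBs. Controls went from 1.16, 0.822 and 2.48 CPM to 42.8, 30.6 and 38.6 CPM. Neil EBs lay within the range of Neil mESCs. The log2 fold change was −0.07 ± 0.23 in Neil mutants and 4.75 ± 0.28 in controls, and the difference of −4.82 ± 0.36 was called (adjusted p = 2.5e-05). Aplnr, the apelin receptor of early mesoderm and vessels, was at 0 in 3 of the 6 Neil EB libraries and at no more than 0.129 CPM in the rest, against 10.6, 9.68 and 13.9 CPM in control EBs. With so few Neil counts its fitted difference was not called in edgeR (adjusted p = 0.997), whereas DESeq2 called it (adjusted p = 7.8e-05). Aplnr passed the filter on low counts only with the control libraries included. Cdh5 (VE-cadherin) was raised in both, with 19.1 CPM in Neil1 #11 and 1.39 to 4.53 CPM in the remaining 5 Neil EB libraries. Sox17 and Sox7, which were also raised, are endoderm genes as well.

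Hox genes record the anterior to posterior position of streak-derived and neural cells. Of the 12 tested genes of groups 5 to 9, all were raised in controls. In Neil mutants 3 were lowered and 9 were not called, with log2 fold changes of −0.42 (Hoxd8) to 1.21 (Hoxb6). The number raised was 0 in edgeR, in DESeq2 and at an unadjusted p below 0.05 in either, and 1 without Neil2 #11. The number lowered was 1 without Neil1 #7 or Neil2 #11. The median change was −0.22 in Neil mutants and 4.02 in controls. For 11 of the 12 the stage change was lower than in controls (background 6.41%), but 5 of the 12 passed the filter on low counts only with the control libraries included, where they are high, so that this count and these medians are in part set by the filter. The change was lower for all 7 that passed with the Neil libraries alone. Only 2 had at least 10 counts in every library, and for both the change was lower. The summed level was 6.26 to 9.48 CPM in Neil mESCs, 5.07 to 9.08 CPM in Neil EBs and 39.3 to 83.7 CPM in control EBs.

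Hoxd9 had 0.82, 1.41 and 1.71 CPM in Neil mESCs and 0.457, 0.633 and 0.863 CPM in Neil EBs, and went in controls from 0.29, 0.523 and 0.432 CPM to 14.3, 16.3 and 10.0 CPM. The direction was opposite in both genotypes, with log2 fold changes of −1.01 ± 0.27 (adjusted p = 0.0095) and 5.01 ± 0.38. Hoxa9 (chr6:52173099-52181088 in NCBIM37) had 0.249, 0.293 and 0.534 CPM in Neil mESCs and 0.0507, 0.145 and 0.42 CPM in Neil EBs, against 15.9, 12.5 and 6.10 CPM in control EBs. The difference from control was −6.02 ± 0.46 for Hoxd9 (adjusted p = 2.5e-05) and −6.01 ± 0.57 for Hoxa9 (adjusted p = 6.1e-05), but the fall of Hoxa9 within Neil mutants (−1.03 ± 0.40) was not called without Neil1 #7, Neil2 #11 or Neil2 #14 (adjusted p 0.14, 0.12 and 0.13). Hoxc8 was at 0 in 4 of 6 Neil EB libraries and at 9.71, 8.29 and 3.23 CPM in control EBs.

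Of the 8 tested genes of groups 1 to 4, Hoxb1 and Hoxb4 were raised, 3 were lowered, and controls raised 7. The rise of Hoxb4 was not called without Neil1 #9, Neil1 #11, Neil2 #1 or Neil2 #14 (adjusted p 0.24, 0.23, 0.28 and 0.11). Hoxb1, which is active first in the gastrula, rose from 0, 0.0763 and 0.379 CPM in Neil mESCs to 0.314, 0.643 and 1.18 CPM in Neil EBs, against 2.86, 1.78 and 3.01 CPM in control EBs. The Neil and control EB libraries did not overlap, and control mESCs held 0.197 to 0.544 CPM. Its log2 fold change of 2.57 ± 0.54 (adjusted p = 0.0012) did not differ beyond the threshold from that of controls (−0.43 ± 0.77, adjusted p = 0.83). Hoxd1, its paralog, fell by 0.90 (SE 0.24) in Neil mutants and rose by 2.02 ± 0.30 in controls, with a difference of −2.93 ± 0.39 (adjusted p = 0.00078). The stage change was lower than in controls for 6 of 8 genes (75%, against 6.41% of all genes), for 3 without control #1 and for 2 without control #4, and for 4 of the 6 genes that passed the filter with the Neil libraries alone.

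**Figure D4:**
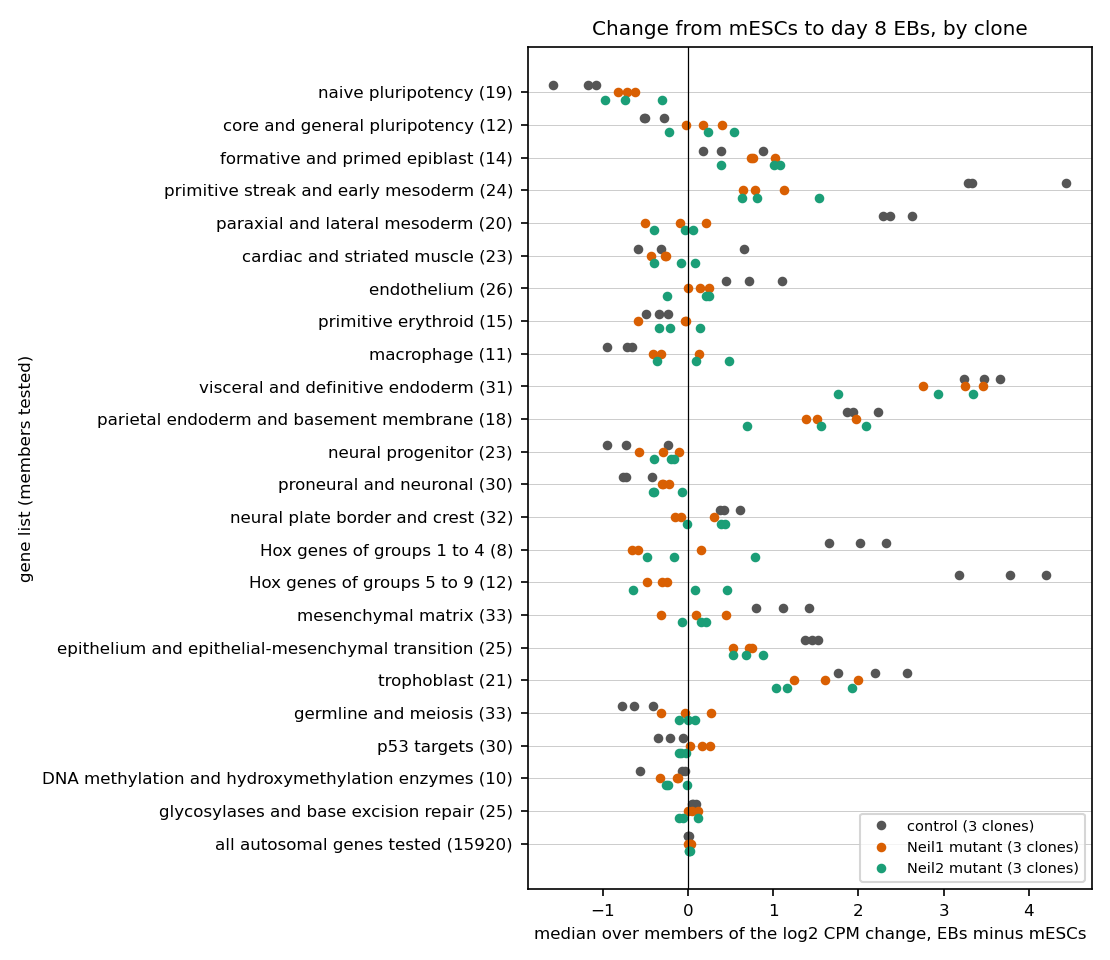
Each point is 1 clone, and its x value is the median over the tested members of a list of the log2 CPM change from its mESC to its EB library, with the number of members tested in parentheses. For Hox genes of groups 5 to 9 the Neil clones lie between −0.65 and 0.45 and the control clones between 3.18 and 4.2, whereas for endoderm the Neil clones lie between 1.76 and 3.46 and the control clones between 3.24 and 3.66.

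Mesenchymal matrix, the collagens and glycoproteins made by mesoderm and crest derivatives, was raised for 12 and lowered for 7 of 33 genes tested in Neil mutants (36.4% and 21.2%, against 16.8% and 16.4% of all genes). Controls raised 22, of which 10 (45.5%) were also raised in Neil mutants, near the 53.3% over all genes. The stage change was lower than in controls for 20 (60.6%, against 6.41% of all genes), and for 18 of the 29 that passed the filter with the Neil libraries alone. The summed level fell below that of mESCs, from 1355 to 1899 CPM in Neil mESCs to 910 to 1225 CPM in Neil EBs, while control EBs held 2346 to 3240 CPM. Col1a1, a chain of type I collagen, had 2.27, 2.96 and 4.42 CPM in Neil mESCs. Its level in EBs was 1.12, 0.986 and 0.976 CPM for Neil1 #7, #9 and #11 and 4.59, 1.48 and 2.24 CPM for Neil2 #1, #11 and #14, whereas control EBs held 178, 196 and 97.2 CPM. Only Neil2 #1 had more in EBs than in mESCs. Col1a1 fell by 0.91 in Neil mutants (SE 0.22, adjusted p = 0.0052) and rose by 4.65 ± 0.25 in controls, with a difference of −5.57 ± 0.33 (adjusted p = 5.4e-06). Tnc (tenascin C) had at most 0.127 CPM in Neil EBs, which is within the level of 3 counts, and 9.88 to 18.4 CPM in control EBs, with a difference of −6.17 ± 0.53 (adjusted p = 4.1e-05). Tnc passed the filter on low counts only with the control libraries included, so this difference is in part set by the filter.

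Vim (vimentin), the intermediate filament gene of mesenchyme, fell from 194, 252 and 321 CPM to 33.4, 39.4 and 50.1 CPM in Neil clones, while controls went from 198, 257 and 258 CPM to 381, 456 and 247 CPM. No Neil EB library approached either mESC range. The fall of 2.59 on the log2 scale (SE 0.16, adjusted p = 3.4e-07) differed from the control change by −3.16 ± 0.27 (adjusted p = 5.8e-05). Zeb2, a repressor that drives epithelial-mesenchymal transition, was not called in Neil mutants (0.549, 0.794 and 1.67 CPM in EBs) and rose to 11.5, 12.8 and 9.40 CPM in control EBs (difference −2.98 ± 0.37, adjusted p = 0.00058). Cdh11, a cadherin of mesenchyme, had 1.65, 1.99 and 2.28 CPM in Neil EBs and 60.8, 41.3 and 21.7 CPM in control EBs (difference −4.40 ± 0.36, adjusted p = 4.9e-05).

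Zeb2 and Cdh11 belong to the epithelium and epithelial-mesenchymal transition list. Of its 25 tested genes, 12 were raised and 3 lowered in Neil mutants (48% and 12%, against 16.8% and 16.4% of all genes). The stage change was lower than in controls for 10 (40%, against 6.41% of all genes) and higher for 1 (background 5.39%). Esrp1, an epithelial splicing regulator, went from 18.7, 23.1 and 30.6 CPM to 89.1, 102 and 119 CPM in Neil clones, by 2.14 ± 0.10, more than in controls (difference 1.14 ± 0.17, adjusted p = 0.0016), where the mESC level was higher, at 38.8 to 45.5 CPM. Krt8, a keratin gene of simple epithelia, rose from 23.6, 33.7 and 56.3 CPM to 160, 269 and 431 CPM in Neil clones and to 724, 1118 and 867 CPM in control EBs, with a difference of −2.06 ± 0.30 (adjusted p = 0.0016). Cdh1 (E-cadherin) had 272 to 362 CPM in Neil mESCs and 423 to 505 CPM in Neil EBs, a change of 0.47 ± 0.09 that stayed under the fold change limit.

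More neural genes were lowered than raised in both genotypes. Neural progenitor genes were lowered for 10 of 23 tested in each, and raised for 5 in Neil mutants and 4 in controls. In Neil mutants these are 43.5% and 21.7%, against 16.4% and 16.8% of all genes. Pax6, a homeodomain factor of neuroectoderm, had 2.00, 3.20 and 3.69 CPM in Neil mESCs and 2.42, 3.22 and 7.73 CPM in Neil EBs. Controls fell from 7.25, 7.69 and 7.75 CPM to 0.653, 1.08 and 0.955 CPM. The Neil mESCs thus lay below and the Neil EBs above the control libraries of the same stage. The stage change differed by 3.34 ± 0.40 (adjusted p = 0.00043). Of 30 proneural and neuronal genes, 8 were lowered and 5 raised in Neil mutants (26.7% and 16.7%, against 16.4% and 16.8% of all genes), and 15 and 5 in controls. The stage change was higher than in controls for 7 and lower for 7, beside 5.39% and 6.41% of all genes. Of the 26 that passed the filter on low counts with the Neil libraries alone, it was lower for 6. The 5 raised were 3 without Neil1 #7, Neil1 #11 or Neil2 #14, and the 7 higher differences were 3 without control #4 and 4 without Neil2 #14. Neurod1, a proneural factor, had 2.71, 3.20 and 3.77 CPM in Neil mESCs and 1.94, 2.05 and 5.82 CPM in Neil EBs, and fell in controls from 9.21, 9.07 and 4.05 CPM to 1.03, 0.658 and 0.918 CPM (difference 2.71 ± 0.46, adjusted p = 0.0042). Stmn2 (stathmin 2), a microtubule regulator of neurons that mESCs also express, fell in both, by 2.36 (SE 0.15) in Neil mutants. Sox1 had no matching name in the annotation and is not analysed here.

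Genes of the neural plate border and crest, the tissue at the edge of the neural plate that yields migratory crest cells, were raised for 12 of 32 tested in Neil mutants and lowered for 8 (37.5% and 25%, against 16.8% and 16.4% of all genes), and for 15 and 6 in controls. For 11 members the stage change was lower than in controls (34.4%, against 6.41%), and for 8 of the 28 that passed the filter with the Neil libraries alone. Msx1, a BMP-induced border gene also made by mesoderm, rose from 0.962, 1.09 and 2.14 CPM to 2.55, 3.40 and 4.06 CPM in Neil clones, against 106, 122 and 65.0 CPM in control EBs. Neil EBs lay just above their mESCs and did not overlap the controls. The rise of 1.41 ± 0.19 was the smaller one (difference −4.95 ± 0.33, adjusted p = 9.9e-06). Pax3, a crest and somite factor, had 0.0845, 0.139 and 0.453 CPM in Neil EBs and 0.779, 1.39 and 1.18 CPM in control EBs. Its rise of 1.12 in Neil mutants was called (edgeR, adjusted p = 0.064), but not in DESeq2 (0.2) or in 4 of 9 fits with a clone left out. Its difference of −2.74 (SE 0.79, adjusted p = 0.044) was not called without control #1 (adjusted p = 0.12) or control #7 (0.11). Pax3 passed the filter on low counts only with the control libraries included, so this difference is in part set by the filter. Called raised in Neil mutants and not in controls were Rxrg (1.78, against 0.25 in controls), Tcfap2c (1.04, 0.16), Zic2 (0.99, 0.278) and Zic1 (0.865, −0.44). Of these only Tcfap2c had a called difference from control. Snai2 and Nrp2 were raised in controls (1.05 and 2.56) and lowered in Neil mutants (−1.08 and −1.12). The crest markers Sox10, Tcfap2a and Dlx2 were not called in Neil mutants (log2 fold changes 0.01, 0.08 and −0.60). In controls Tcfap2a rose by 0.87 and Sox10 and Dlx2 were not called, and none of these 3 differences from control was called (adjusted p = 0.74 for Sox10, 0.17 for Tcfap2a and 0.72 for Dlx2).

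Many markers of blood and macrophages were low. The embryonic globin genes Hbb-bh1, Hba-x and Hbb-y did not pass the filter on low counts, and held 1, 0 and 3 counts over the 6 Neil EB libraries. For Hbb-bh1 the 3 control EB libraries held 97 counts, at 0.779, 2.32 and 0 CPM in control #1, #4 and #7. Of 15 erythroid genes tested, 1 was raised and 6 lowered in Neil mutants (6.67% and 40%, against 16.8% and 16.4% of all genes). The 6 lowered were 3 without Neil1 #11 or Neil2 #1. The tested erythroid genes summed to 905 to 1145 CPM in Neil mESCs, 535 to 743 CPM in Neil EBs and 597 to 610 CPM in control EBs. Of 23 macrophage genes, 12 did not pass the filter, among them Ptprc (CD45) and Tyrobp, with 5 and 8 counts over the 6 Neil EB libraries and 0 and 3 over the 3 control EB libraries. C1qa, a complement gene of macrophages, was at 0 in all 18 libraries. Csf1r, the receptor for colony-stimulating factor 1, which trophoblast also carries, rose from 0.0726, 0.385 and 0.599 CPM to 1.48, 2.26 and 5.63 CPM in Neil clones, with no called difference from control (0.15 ± 0.62). The summed level of tested macrophage genes was 101 to 130 CPM in Neil mESCs and 44.9 to 72.5 CPM in Neil EBs.

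Some genes outside the lists, named by rule as those with the largest called changes in all 6 Neil clones, are the following. The largest rises among genes of a mean log2 CPM of at least 2 included Prss12 (log2 fold change 7.60 ± 0.55), Aqp8 (6.46 ± 0.46), a water channel gene, and Lgals2 (6.45 ± 0.51), a galectin gene, for none of which the control change differed beyond the threshold. The largest falls were those of Msln (−4.62 ± 0.18), Ace (−3.97 ± 0.27), A2m (−3.85 ± 0.22) and Socs3 (−3.65 ± 0.14). Socs3, a direct target of LIF signalling, fell from 100, 141 and 199 CPM to 8.27, 10.3 and 20.3 CPM. Neil EBs thus lay far below Neil mESCs, and 5 of the 6 lay below all control EBs at 15.7, 28.7 and 22.7 CPM.

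Among genes of a mean log2 CPM of at least 2, the most negative differences from control whose clone changes did not overlap (8.06% of all genes had all 6 Neil changes below the 3 control changes) included Wnt5a (−5.66 ± 0.32), a non-canonical Wnt ligand gene of the posterior embryo, and Pmp22 (−5.43 ± 0.19), a membrane protein gene of mesenchyme and Schwann cells. Wnt5a had 0.744, 1.5 and 2.48 CPM in Neil EBs, a range that overlapped the Neil mESCs at 0.747 to 2.14 CPM, and 110, 85.9 and 53 CPM in control EBs. Pmp22 had 2.70, 3.22 and 5.17 CPM in Neil EBs and 190, 194 and 140 CPM in control EBs. The most positive differences included Bcl11a (3.22 ± 0.45), a zinc finger repressor gene, and Enpp2 (2.74 ± 0.34), which encodes autotaxin. Bcl11a rose from 0.69, 0.899 and 1.35 CPM to 3.72, 8.01 and 22.9 CPM in Neil clones, while control clones held 2.1 to 2.99 CPM in mESCs and 2.13 to 3.26 CPM in EBs. Enpp2 reached 8.79 to 24.1 CPM in Neil EBs and 12.6 to 17.8 CPM in control EBs. Its EB ranges overlapped, while Neil mESCs held at most 0.508 CPM and control mESCs at least 1.53 CPM.

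The stage change of Neil1 and Neil2 mutants was also fitted for each mutant. Neil1 mutants raised 2151 genes (13.5%) and lowered 2095 (13.2%), and Neil2 mutants raised 2341 (14.7%) and lowered 2061 (12.9%). Both raised 1582 genes, which are 73.5% of the Neil1 and 67.6% of the Neil2 genes, and both lowered 1431, which are 68.3% and 69.4%. Against controls, 489 genes were higher (3.07%) and 747 lower (4.69%) in Neil1 mutants, and 571 higher (3.59%) and 740 lower (4.65%) in Neil2 mutants, with the same 3 control clones in both. The direct test of Neil1 against Neil2 called 0 genes in edgeR, with 522 genes at an unadjusted p below 0.05, and 0 in DESeq2, with 505 at that limit. With 3 clones each this does not show that the mutants are alike. In Neil1 mutants 28 endoderm genes were raised and in Neil2 mutants 26, and Hox genes of groups 5 to 9 were raised in neither.

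Clones of 1 genotype also differed. Neil2 #11 EBs had the lowest sum of endoderm genes (473 CPM) and Neil2 #1 EBs the highest (1819 CPM), with 1014 to 1460 CPM in the other 4 Neil EB libraries. The median endoderm change was 1.76 in Neil2 #11 and 2.76 to 3.46 in the other 5 clones. The parietal endoderm and basement membrane list had the same lowest clone (0.69, against 1.38 to 2.09). The EBs of Neil2 #1 also held the lowest Pou5f1 (404 CPM), Lefty1 (79.0 CPM) and T (0.647 CPM) of the 6. No Neil clone reached the control range of the streak list, where medians were 0.63 to 1.54 in Neil and 3.29 to 4.44 in control clones, or that of the matrix list (−0.32 to 0.44 against 0.80 to 1.42).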

How the data were processed

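The deposited values were raw read counts per gene, without normalization, in 1 file per library. Libraries were made by the authors from polyadenylated RNA (TruSeq, not stranded) and sequenced for 51 cycles, and the submitters' processing notes name TopHat2 2.0.9, Bowtie2 2.1.0 and HTSeq 0.5.4 with NCBIM37. Reads aligned to several places (14.5% to 19.9%) were not counted, so genes with close copies are uncertain. Of 37991 identifiers, 37205 matched the annotation and 34551 are autosomal.

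The 18 libraries of the Neil and control clones were fitted together in R 4.3.3 with edgeR 4.0.16 (limma 3.58.1), using filterByExpr, TMM and the robust quasi-likelihood test, with the clone as a block (6 residual degrees of freedom) and Benjamini-Hochberg adjustment over 15920 genes. The clone is a block because both libraries derive from the same line. Deviations of the 2 libraries of a clone correlated at −0.36 to 0.16, over 0.1 in 3 of 9 clones. Those of an mESC and an EB library from different clones of a genotype correlated at −0.361 to 0.354. The pairing therefore rests on the clone labels, and these correlations do not bear it out. Thresholds are those of the study's methods, which give no test of EBs against mESCs. Libraries of 1 group differed beyond counting noise in all 18 pairs (chi-squared per degree of freedom 9 to 104). Fold changes ± SE are on the log2 scale. On simulated counts the fit recovered 100 of 100 Neil stage changes of log2 2 and 89 of 100 of log2 1 (17 false calls among 15761 genes), and 95 and 57 of 100 differences from control (11 false calls). The changed genes were drawn from those with a mean above 1 CPM, and simulated control clones had no stage change. Recovery for genes of lower level, or with a stage change in controls, was not tested.

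Members and lists were chosen with earlier results of these data known, and some genes stand in several lists. Of 581 list entries, 559 were autosomal and matched 1 gene, 11 were on other chromosomes, 6 had a shared name, 5 had no match, and 64 did not pass the filter. Named were the targeted genes, key markers, the extreme called members of each list and the 6 most extreme genes overall per direction, and some of these are not reported here. Alternatives were DESeq2 1.42.0, RLE size factors, other filters and limits, the Neil libraries alone, no block, all chromosomes, and each clone left out. Promoters and guides were read from RefSeq (GRCm38.p6) and NCBIM37. Tables and figures used Python 3.11.15 with pandas 2.3.3, numpy 2.4.6 and matplotlib 3.10.9.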

Additional observations from a re-analysis of the deposited data

Results flagged for a closer look

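Results are listed here because the tested difference between the Neil and the control stage change was called. Over all autosomal genes it was called for 858 genes higher and 1021 lower in Neil mutants, for 489 higher and 747 lower in Neil1 mutants, and for 571 higher and 740 lower in Neil2 mutants, where both mutants share the 3 control clones.

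Among key genes of pluripotency and the formative state, the difference in log2 change (Neil minus control) was 0.70 for Zfp42, 0.67 for Esrrb, 0.65 for Pou5f1, 0.89 for Sox2, 1.42 for Fgf5, 0.75 for Otx2 and -2.79 for Cdh2. Of the streak and mesoderm genes, T had -3.61, Eomes -2.19, Mixl1 -4.93, Mesp1 -4.29, Foxf1a -5.82, Hand1 -3.79, Tnnt2 -1.72 and Kdr -4.82. The Hox genes Hoxa2, Hoxb9 and Hoxa9 had -2.14, -1.24 and -6.01. In matrix and transition genes the difference was -5.57 for Col1a1, -6.11 for Col3a1, -6.17 for Tnc and -2.98 for Zeb2, and it was 0.75 for the laminin gene Lamb1. Neural and crest genes had 3.34 (Pax6), -1.56 (Nes), 1.46 (Tubb3) and -2.74 (Pax3). The germ cell helicase gene Ddx4 had 0.99, the p53 target Mdm2 0.58 and the dioxygenase gene Tet1 0.84.

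With each clone left out in turn, 16 of these 30 gene differences were called in all 9 fits and 14 were not, 12 of them without control #4 (edgeR, adjusted p). Among the 16, Mesp1, Col3a1 and Tnc passed the filter on low counts only with the control libraries included, where they are high. Foxf1a, Hoxa2 and Pax3 among the 14 did so too. The differences of these genes are in part set by the filter, also with a clone left out. The call was lost in 8 fits for Pou5f1 (all but that without Neil2 #1, adjusted p up to 0.3), in 7 for Fgf5 (all but those without Neil1 #11 or Neil2 #1, up to 0.39), and in 6 each for Mdm2 (each control, Neil1 #7, Neil1 #11 and Neil2 #14, up to 0.21) and Hoxa2 (each control, Neil1 #9, Neil1 #11 and Neil2 #11, up to 0.16). Tet1 lost it in 5 (control #4, control #7, Neil1 #7, Neil1 #11 and Neil2 #14, up to 0.19). Controls #1 and #4 and Neil2 #14 each ended the call for Zfp42 (also Neil1 #9, up to 0.22), Hoxb9 (also Neil1 #7, up to 0.25) and Lamb1 (also Neil1 #11, up to 0.26). Foxf1a lost it without control #4, Neil1 #11 or Neil2 #11 (0.12 to 1), Tubb3 without control #4, control #7 or Neil2 #14 (0.11 to 0.12), and Otx2 without control #4, Neil1 #9 or Neil2 #14 (up to 0.35). For Esrrb these clones were controls #1 and #4 (up to 0.12), for Tnnt2 control #1 and Neil2 #14 (up to 0.19), and for Pax3 controls #1 and #7 (up to 0.12). Tubb3 was also not called with no filter on low counts (0.26), nor Hoxa2 in DESeq2 (0.15).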

How the results depend on the processing

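The count of genes with a called difference depended most on the limits and on single clones. Without the replicate block (clone), the only count that moved by over 1.5 times was that of genes higher in Neil2 mutants than in controls, from 571 to 879. At an adjusted p below 0.05, 501 genes were higher in Neil mutants, 275 in Neil1 and 309 in Neil2, and 463 were lower in Neil2. With a log2 limit of 1, 1236 genes were raised and 1265 lowered in Neil, 1127 and 1228 in Neil1, 1195 and 1078 in Neil2 and 1639 and 1874 in control clones, and the difference was called higher and lower for 483 and 664 genes in Neil, with 318 higher in Neil1 and 372 in Neil2.

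With each clone left out in turn, 2221 to 2786 genes were raised and 2386 to 2776 lowered in Neil mutants, 1559 to 2320 and 1403 to 2309 in Neil1 (lowest without Neil1 #11), 1254 to 2529 and 1235 to 2238 in Neil2 (lowest without Neil2 #14), and 2379 to 3102 and 2140 to 3267 in controls. The difference from control was called for 258 to 1023 genes higher and 534 to 1241 lower in Neil (lowest without control #4), 140 to 646 and 377 to 915 in Neil1 (lowest without control #4), and 113 to 848 and 329 to 910 in Neil2 (lowest without Neil2 #14). Neil1 against Neil2 gave 0 in each. With 1 clone fewer the fit has fewer samples, and other causes were not tested.

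No called value changed sign under the alternatives run. With a clone left out, 27 to 29 endoderm genes were raised, 11 to 15 streak genes were raised and 12 to 15 had a lower change than in controls, as did 8 to 13 Hox genes of groups 5 to 9 and 16 to 20 matrix genes. Requiring at least 10 counts in every library left 20 of 31 endoderm, 11 of 24 streak and 2 of 12 Hox genes of groups 5 to 9 to test, of which 17, 6 and 0 were raised in Neil mutants and 17, 6 and 2 in controls, and 3, 5 and 2 had a lower change than in controls. DESeq2 kept the direction and the side of the threshold for 348 of 366 named values, and RLE size factors for 360. Genes under about 3 counts per library limit the Hox, trophoblast and globin values.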

Other observations

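Germline and meiosis genes, many of which are silenced in epiblast cells, went both ways in Neil mutants. Of 33 tested, 10 were raised and 10 lowered (30.3% each, against 16.8% and 16.4% of all genes), whereas controls raised 3 and lowered 18. The stage change was higher than in controls for 8 (background 5.39%), and for 4 without control #1 or control #4. Stra8, a gene that retinoic acid induces before meiosis, fell from 53.2, 85.6 and 140 CPM (lowest, median and highest) in Neil mESCs to 10.7, 17.1 and 31.5 CPM in Neil EBs, and control EBs held 1.92, 6.21 and 6.28 CPM. All 6 Neil EB libraries lay above the control EBs, and the difference in log2 change was 2.29 ± 0.39 (edgeR, adjusted p = 0.0043). Sycp3, a component of the synaptonemal complex, rose from 8.93, 12.4 and 19.7 CPM to 22.3, 26.2 and 35.7 CPM in Neil clones, with no called difference from control (adjusted p = 0.2).

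Of 10 DNA methylation and hydroxymethylation enzymes tested, the de novo methyltransferase genes Dnmt3a and Dnmt3b were raised and Tet1, Tet2, Tet3 and Dnmt3l lowered in Neil mutants. Tet2 fell from 128, 135 and 176 CPM to 46.4, 60.1 and 81.1 CPM, less than in controls (difference 0.95, adjusted p = 0.008), and this difference was called with each clone left out. The rise of Dnmt3a (0.59) was not called without Neil2 #11, nor the fall of Tet1 (−0.56) without Neil1 #9 or Neil2 #1. Among 30 p53 targets, 3 were raised and 5 lowered (10% and 16.7%, against 16.8% and 16.4% of all genes; 3 lowered without Neil1 #7), and controls raised 1 and lowered 8. The stage change was higher than in controls for 6 and lower for 1 (5.39% and 6.41% of all genes). With each clone left out in turn, these counts were 1 to 6 and 0 to 1. Cdkn1a, which encodes the cell cycle inhibitor p21, rose from 31.3, 53.1 and 68.7 CPM to 78.9, 106 and 148 CPM, and its rise of 1.08 ± 0.12 had no called difference from that of controls (−0.07). Of 25 base excision repair genes, 3 were raised (Neil2, Polg and Polg2) and 2 lowered (Neil1 and Lig1), which are 12% and 8%, against 16.8% and 16.4% of all genes. The rise of Neil2 was not called without Neil1 #9, Neil1 #11, Neil2 #1 or Neil2 #14 (edgeR, adjusted p = 0.21, 0.17, 0.25 and 0.17). As Neil1 and Neil2 are the targeted genes, their calls include clones in which the gene itself was cut.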
